A study of Mus musculus with 12 samples.

Results

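The mitosis and G2/M genes described here were a named list of 50 genes whose products drive entry into mitosis, build the spindle, hold and part the chromosomes and divide the cell. They were taken by gene name from the per-library expression tables, where each had 1 row among 31340 gene rows. RNA was sequenced from sorted hematopoietic stem cells (HSCs) of wild-type (WT) mouse bone marrow, in 12 libraries of 3 per group. The groups were Ctrl (not irradiated), IR (ionizing radiation, cells collected 3 days after exposure), Ab_IR and L_IR. The last 2 were irradiated as well and collected at the same time, and what Ab and L stand for is not written out in the labels. In the study's methods, HSCs were Lineage-, Sca-1+, c-Kit+, Flt3- and CD34- cells. Nothing in the labels says that replicates came from separate animals, so p-values measure the spread between these libraries, which may be technical.

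Mitosis is started by Cdk1, a kinase that needs a cyclin partner (Ccna2, Ccnb1, Ccnb2) and the removal of inhibitory phosphates by Cdc25 phosphatases. Aurora and Polo kinases, kinesin motors and the kinetochore then attach chromosomes to the spindle, and a checkpoint of Bub and Mad proteins holds back Cdc20 and the anaphase-promoting complex until attachment is complete. Transcripts of these genes climb together in G2 and fall after division, so in a mixed population they are widely read as markers of dividing cells, and most adult HSCs are quiescent. The levels measured here are amounts of RNA and count no dividing cells. In bulk libraries, fewer cells of a kind and less RNA per cell cannot be told apart.

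Values were FPKM (fragments scaled by gene length and by library size) of unknown depth, so no counting interval can be given. Ctrl replicate 1 was unlike the other 11 libraries: 44.1% of its gene rows were at 0, where the others had 24.7% to 27.3%, and counts and named values against Ctrl are therefore given with and without it. The atrial hormone gene Nppa stood at 51.2 to 63.9 FPKM in the IR libraries and in Ctrl replicates 2 and 3, and no higher than 0.26 FPKM in the remaining 7. Between IR and either Ab_IR or L_IR this split coincides with the groups, and the 2 cannot be told apart except through Ctrl replicate 1. Of 15 HSC markers none was at 0 in all libraries. Hoxb5, Fgd5, Mecom, Slamf1 and Ctnnal1 were under 1 FPKM in all 12 libraries, whereas Kit, Gata2 and Ly6a, named after their values were seen, were above 1 FPKM in all 12. Cd34 was also above 1 FPKM in all 12, although the sort of the study's methods took CD34- cells. The 15 include Cd34 and Flt3, whose proteins that sort selected against, and the sum below holds both. The summed FPKM of the 15 was 115 to 121 in Ctrl, 76.5 to 83.9 in IR, 105 to 113 in Ab_IR and 109 to 109.7 in L_IR. In IR against Ctrl 7 of 9 tested were lower and 1 higher, where 25.5% and 17.5% of all genes were. Without Ctrl replicate 1 the counts were again 7 and 1, where 34.7% and 25.1% of all genes were lower and higher. Of 8 megakaryocyte markers the sum was 61.5 to 78.1, 15.4 to 18.2, 159.8 to 164 and 99.2 to 106 FPKM in that order, and of 7 stroma and bone markers 163 to 204, 10.4 to 11.2, 51.1 to 57.1 and 49.6 to 51.7 FPKM. Summed FPKM of 14 erythroid markers was 3733 to 4202 in Ctrl, 619 to 636 in IR, 3460 to 3711 in Ab_IR and 1886 to 1949 in L_IR. Summed FPKM of 14 neutrophil and monocyte markers was 11403 to 13286, 16825 to 17076, 12367 to 12954 and 9220 to 9436 in the same order. For these 5 sums IR did not overlap with the other groups, nor did it for 8 macrophage markers (65.2 to 72.3, 42.8 to 48.6, 68.9 to 76.04 and 61.6 to 68.0 FPKM). The sum of 14 B and plasma cell markers was 641 to 752, 942 to 960.5, 1081 to 1173 and 1432 to 1459 FPKM, with no overlap between any of the groups. For 7 T and NK cell markers IR, at 217 to 222 FPKM, lay inside Ctrl, at 165 to 272, and below Ab_IR, at 283 to 292, and L_IR, at 242 to 251. Summed FPKM of 8 heart markers, Nppa among them, was 0.260 to 144, 117 to 149, 0.350 to 0.590 and 0.290 to 0.480 in the first order. The part of these markers in the results was not tested.

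All 50 members were above 0 in all 12 libraries, and all 50 passed the filter on low values in every comparison. The median member stood between 24.2 and 29.0 FPKM in each library. Summed over the members, FPKM was 1799 to 1943 in Ctrl, 1894.5 to 1913 in IR, 1801 to 1878 in Ab_IR and 1716 to 1738 in L_IR. As a sum the list was lowest in L_IR, whose 3 libraries lay below the other 9, and the IR range fell inside that of Ctrl. That order depended on the immunoglobulin genes, whose share of FPKM differed between the groups. With them left out and the remaining FPKM scaled to the same total, the sums were 1983 to 2190.4 in Ctrl, 2294 to 2338 in IR, 2087 to 2192 in Ab_IR and 2212 to 2254 in L_IR, so that IR was highest and L_IR lay above every Ctrl and Ab_IR library. Per length of gene, the most abundant members by their mean over 12 libraries were Cks2 at 114 FPKM, Mki67 at 109.9 FPKM, Cks1b at 98.03 FPKM, Cdc20 at 96.6 FPKM and Smc4 at 93.5 FPKM. Cks1b and Cks2 encode small subunits that bind Cdk1, Mki67 coats mitotic chromosomes, Cdc20 activates the anaphase-promoting complex and Smc4 is a core subunit of condensin. At the other end stood Cdc25c at 4.61 FPKM and Cenpf, a kinetochore protein, at 6.07 FPKM.

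**Figure D1:**
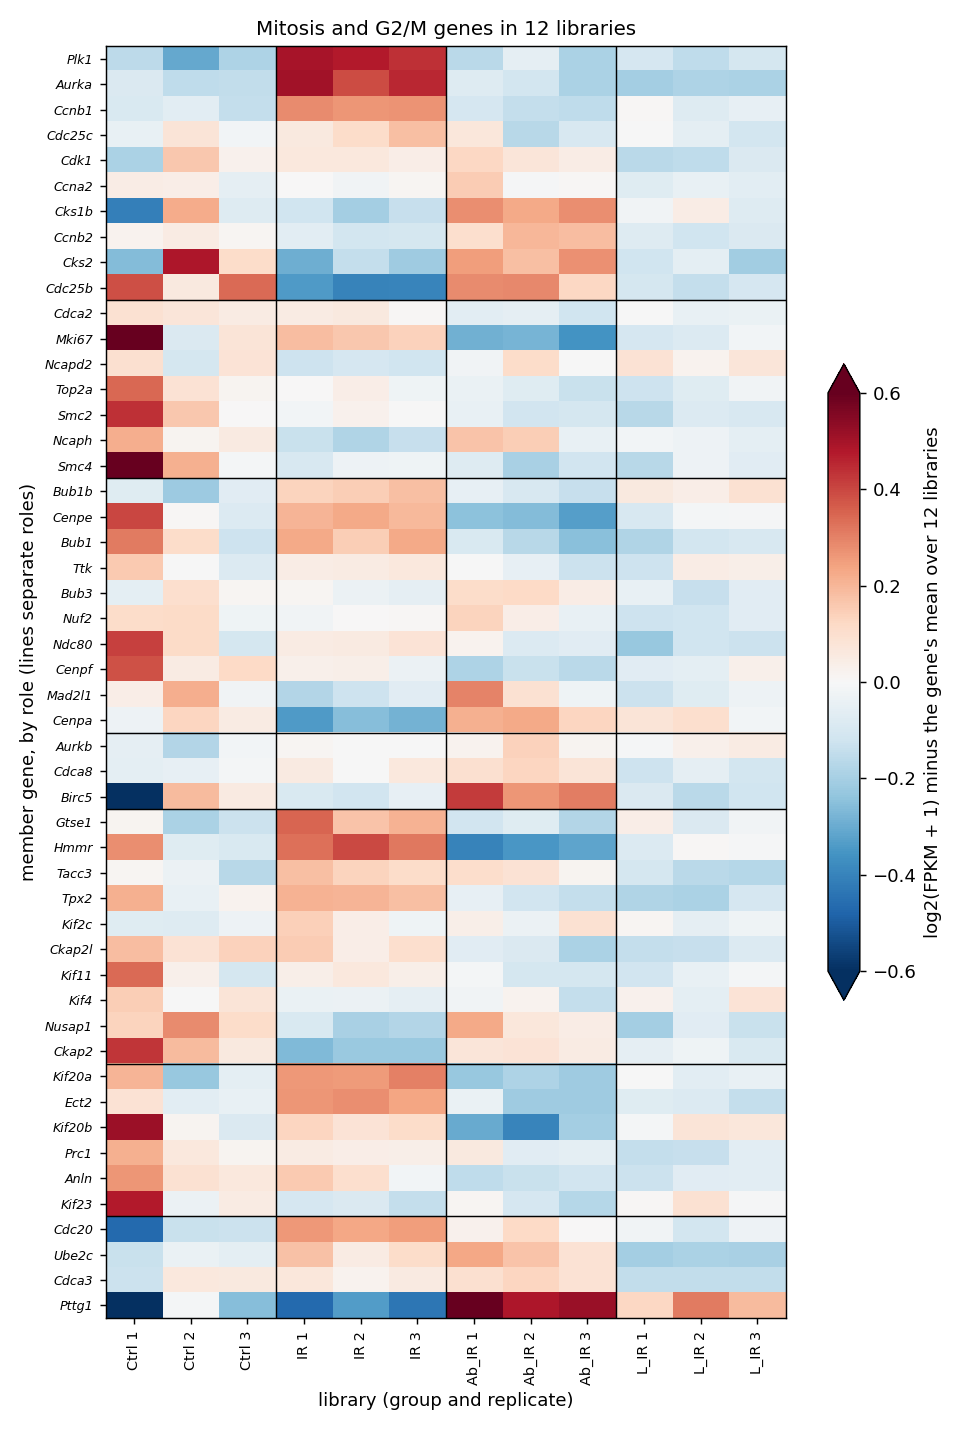
Each row is a member gene and each column a library, and colour gives log2(FPKM + 1) minus that gene's mean over the 12 libraries, from blue (lower) to red (higher), with values beyond the limits of the colour bar drawn in the end colours. Rows are grouped by role. Plk1 and Aurka are red in the 3 IR libraries and Cdc25b and Cenpa are blue there, whereas the column of Ctrl replicate 1 differs from the other Ctrl columns.

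Setting IR beside Ctrl asks where these genes stood 3 days after irradiation. The list did not move one way. Higher in IR were 7 members (Plk1, Aurka, Cdc20, Ccnb1, Gtse1, Bub1b and Ect2), kinases and regulators of mitotic entry, the checkpoint and cytokinesis among them, and Cdc25b, Ckap2, Cenpa, Nusap1 and Ncaph were lower. Of the 50 members, 12 passed an adjusted p under 0.05 (limma on log2(FPKM + 1), Benjamini-Hochberg over 12072 genes), 24.0% against 43.1% of all genes tested. Rises numbered 7, or 14.0% of members against 17.5% of all genes, and falls numbered 5, where 25.5% of all genes fell. Without IR replicate 1 or 3 the rises numbered 4, where 11.8% and 11.7% of all genes rose. Without any 1 of the IR replicates the falls numbered 3, where 16.9% to 17% of all genes fell. The groups did not overlap for 25 of the 50, and for 58.1% of all genes. The median log2 fold change was -0.04 over the members and -0.05 over all genes, and the members' median minus that of all genes was -0.04 with quantile normalization, -0.04 with no filter, 0.06 without Ctrl replicate 1 and 0.08 with the Nppa split as a term in a fit of all 12 libraries. With FPKM scaled by the median ratio the members split into 11 higher and 4 lower, where 21.1% and 21.8% of all genes passed, and with immunoglobulin genes left out into 9 higher and 3 lower, where 19.3% and 18.9% did. None of the 50 passed an adjusted p under 0.05 together with a 2-fold change, a rule that 7.6% of all genes met, while at an unadjusted p under 0.05 the members numbered 17 of 50, against 51.3% of all genes.

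Plk1, the Polo kinase that acts at centrosomes, kinetochores and the midzone, was listed at 64.9, 58.5 and 63.7 FPKM in Ctrl, 102, 101 and 98.7 FPKM in IR, 64.7, 69.8 and 63.5 FPKM in Ab_IR and 67.5, 65.2 and 67.4 FPKM in L_IR, each for replicates 1 to 3. The 3 IR libraries lay above the other 9. Its log2 fold change in IR against Ctrl was 0.69 (SE 0.0641, adjusted p = 0.000429 by limma), the largest rise among the members. Aurka, the centrosomal Aurora kinase that activates Plk1, stood at 35.2, 33.5 and 33.6 FPKM in Ctrl, 53.4, 49.4 and 51.5 FPKM in IR, 35.4, 34.6 and 32.6 FPKM in Ab_IR and 32.4, 32.8 and 32.7 FPKM in L_IR. Again IR stood alone above the rest, with a difference of 0.58 on the log2 scale (SE 0.0592, adjusted p = 0.000616). With Ctrl replicate 1 left out the values were 0.71 for Plk1 and 0.60 for Aurka (adjusted p = 8.55e-05 and 0.000142).

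For Ccnb1, the cyclin that carries Cdk1 into mitosis, the values were 36.96, 37.7 and 35.6 FPKM in Ctrl, 48.2, 47.6 and 47.7 FPKM in IR, 36.7, 35.6 and 35.3 FPKM in Ab_IR and 39.7, 37.4 and 38.1 FPKM in L_IR. The IR libraries were again above the other 9, and it rose by 0.37 on the log2 scale against Ctrl (SE 0.0542, adjusted p = 0.00251), or by 0.38 without Ctrl replicate 1 (adjusted p = 0.000680). Cdc20 was at 69.0, 87.1 and 87.5 FPKM in Ctrl, 115, 113 and 114 FPKM in IR, 97.5, 104 and 95.97 FPKM in Ab_IR and 94.4, 88.8 and 93.8 FPKM in L_IR. Its difference was 0.49 (SE 0.103, adjusted p = 0.00997), and Ctrl replicate 1 was the lowest of the 12 libraries, so that without it the value was 0.38 (adjusted p = 0.000303). Its Ab_IR and L_IR libraries were also above every Ctrl library, but neither difference from Ctrl passed (0.29 and 0.19, adjusted p = 0.208 and 0.319, and 0.18 and 0.08 without Ctrl replicate 1, adjusted p = 0.134 and 0.261), except that of Ab_IR in the fit of all 12 libraries (adjusted p = 0.0340).

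Gtse1, Ect2 and Bub1b also rose. Gtse1, a microtubule-binding protein of G2 and mitosis, was at 21.8, 18.7 and 19.6 FPKM in Ctrl and 27.7, 24.4 and 25.04 FPKM in IR (0.34 on the log2 scale, adjusted p = 0.0167). The exchange factor Ect2, which switches on RhoA to form the cleavage furrow, was at 17.5, 15.6 and 15.9 FPKM in Ctrl and 19.9, 20.1 and 19.5 FPKM in IR (0.27, adjusted p = 0.0172). The call of Gtse1 was lost without IR replicate 1 (adjusted p = 0.0726) or 3 (0.0560), and that of Ect2 without IR replicate 1 (0.0750), 2 (0.0815) or 3 (0.0649). The checkpoint kinase Bub1b was at 42.9, 38.8 and 43.04 FPKM in Ctrl and at 49.6, 50.3 and 51.4 FPKM in IR (0.27, adjusted p = 0.0151). Its call too was lost when IR replicate 1 (adjusted p = 0.0599), 2 (0.0676) or 3 (0.0770) was left out, and with quantile normalization (0.0836). The log2 fold changes of Gtse1, Ect2 and Bub1b without Ctrl replicate 1 were 0.40, 0.31 and 0.30 (adjusted p = 0.00264, 0.00149 and 0.00446).

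**Figure D2:**
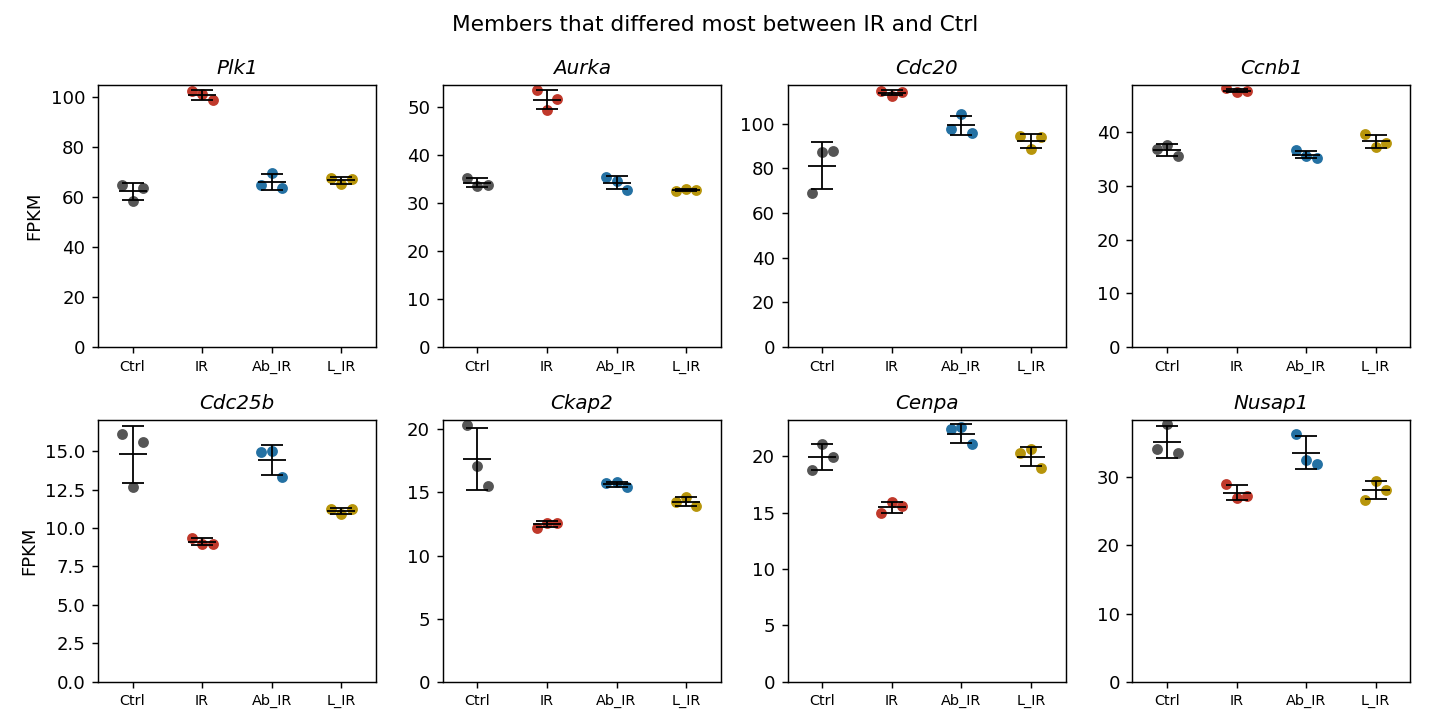
Each panel shows a member whose difference between IR and Ctrl was among the 4 largest rises (top row) or falls (bottom row), with FPKM on the vertical axis, a point for each library, and a bar and whiskers for the mean and SD of the 3 libraries of a group. The IR libraries stand above the other 9 for the 4 genes of the top row and below the other 9 for Cdc25b, Ckap2 and Cenpa, while for Nusap1 they overlap with L_IR.

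Cdc25b, a phosphatase that switches on Cdk1 at mitotic entry, showed the largest fall. It was listed at 16.1, 12.7 and 15.6 FPKM in Ctrl, 9.37, 8.96 and 8.99 FPKM in IR, 14.97, 15.1 and 13.3 FPKM in Ab_IR and 11.2, 10.9 and 11.2 FPKM in L_IR. IR was lowest and L_IR came next, with no overlap between them, and against Ctrl the IR libraries differed by -0.64 on the log2 scale (SE 0.0975, adjusted p = 0.00296). Ckap2, which stabilizes spindle microtubules, was at 20.4, 17.1 and 15.5 FPKM in Ctrl, 12.2, 12.6 and 12.6 FPKM in IR, 15.7, 15.8 and 15.4 FPKM in Ab_IR and 14.3, 14.6 and 13.9 FPKM in L_IR. Its value was -0.46 (SE 0.101, adjusted p = 0.0116), and the call was lost without IR replicate 1 (0.0501) and with immunoglobulin genes left out (0.0573). Cdc25b had -0.58 and Ckap2 -0.36 when Ctrl replicate 1 was left out (adjusted p = 0.00198 and 0.00236), and Ckap2 -0.28 when the length trend was taken out as well.

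Cenpa, the histone H3 variant that marks the centromere, stood at 18.8, 21.1 and 19.9 FPKM in Ctrl, 14.9, 15.9 and 15.6 FPKM in IR, 22.4, 22.6 and 21.1 FPKM in Ab_IR and 20.3, 20.7 and 19.01 FPKM in L_IR. The IR libraries lay below the other 9, at -0.34 against Ctrl (SE 0.0662, adjusted p = 0.00728). Nusap1, a bundler of spindle microtubules, was at 34.1, 37.9 and 33.5 FPKM in Ctrl, 29.1, 26.9 and 27.3 FPKM in IR, 36.4, 32.6 and 31.96 FPKM in Ab_IR and 26.7, 29.5 and 28.1 FPKM in L_IR. Its value was -0.33 (SE 0.0710, adjusted p = 0.0110), not called without IR replicate 2 (0.0580) or 3 (0.0557). The condensin subunit Ncaph had -0.25 (adjusted p = 0.0323), with 24.9, 21.6 and 22.1 FPKM in Ctrl and 19.3, 18.6 and 19.2 FPKM in IR. That call was lost without IR replicate 1 (adjusted p = 0.0985), 2 (0.124) or 3 (0.103), with median ratio scaling (0.0792), with no filter (0.0516), with the length trend taken out (0.0735) and without immunoglobulin genes, where the value was -0.17 (0.244), and also with Ctrl replicate 1 left out and the length trend taken out (-0.12, 0.0550). The 3 values without Ctrl replicate 1 were -0.38 for Cenpa, -0.35 for Nusap1 and -0.19 for Ncaph (adjusted p = 0.00129, 0.00485 and 0.0121).

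Several of the best known proliferation genes did not pass the test between IR and Ctrl. Cdk1 itself was at 24.1, 31.1 and 28.2 FPKM in Ctrl and 28.98, 28.9 and 28.5 FPKM in IR, so the IR libraries lay within the Ctrl range (0.06 on the log2 scale, SE 0.0961, adjusted p = 0.658). Ccna2, the S and G2 cyclin, had -0.01 (adjusted p = 0.904). Top2a, the topoisomerase that untangles sister chromatids, was at 106, 88.7 and 84.3 FPKM in Ctrl and 83.7, 85.7 and 81.9 FPKM in IR (-0.14, adjusted p = 0.272). Leaving out Ctrl replicate 1 gave Cdk1 -0.04, Ccna2 0.01 and Top2a -0.05 (adjusted p = 0.576, 0.904 and 0.401), so Cdk1 and Ccna2 changed sign and Top2a came nearer to 0.

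Aurkb, the kinase of the chromosomal passenger complex, lay at 38.1 to 42.7 FPKM in Ctrl and 43.1 to 43.6 FPKM in IR (0.08, adjusted p = 0.323). The spindle kinesin Kif11 was at 41.1, 32.98 and 29.96 FPKM in Ctrl and 33.1, 33.8 and 33.1 FPKM in IR (-0.04, adjusted p = 0.787). Mad2l1, the checkpoint protein that captures Cdc20, had -0.20 (adjusted p = 0.0896), with Ctrl at 14.7 to 17.5 FPKM and IR at 13.1 to 14.2 FPKM. For Aurkb and Mad2l1 the groups did not overlap although neither passed. Aurkb had 0.10, Kif11 0.08 and Mad2l1 -0.22 without Ctrl replicate 1 (adjusted p = 0.171, 0.221 and 0.0544), and Aurkb passed when the length trend was taken out as well (0.19, adjusted p = 0.0358).

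Ctrl replicate 1 decided the sign or the call of many members. Without it, 23 members passed (46.0% against 59.8% of all genes), 14 higher and 9 lower, where 25.1% and 34.7% of all genes passed in those directions. The 12 members called with all 3 Ctrl libraries were among the 23 in the same direction, 11 more were added and 10 members changed sign. The groups then did not overlap for 37 of 50 members (74.4% of all genes), and 27 had an unadjusted p under 0.05 (64.5% of all genes). Mki67, a widely used proliferation marker, was at 171, 102 and 114 FPKM in Ctrl, the first value being the highest of the 12 libraries, and at 122.7, 121 and 119 FPKM in IR. Its log2 fold change was -0.06 (adjusted p = 0.832) with all Ctrl libraries and 0.17 (adjusted p = 0.0429) without the first.

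Birc5 (survivin, of the chromosomal passenger complex) went the other way, at 21.98, 39.2 and 35.5 FPKM in Ctrl and 32.1, 31.6 and 33.1 FPKM in IR. The value was 0.04 (adjusted p = 0.890) with Ctrl replicate 1 and -0.20 (adjusted p = 0.0195) without it. Tpx2, the activator of Aurora A on the spindle, had 0.14 (adjusted p = 0.216), and 0.21 (adjusted p = 0.00559) without that library. Hmmr, a spindle pole protein, had 0.31 (adjusted p = 0.0634) and 0.43 (adjusted p = 0.000520), and the midzone kinesin Kif20a 0.30 (adjusted p = 0.0754) and 0.41 (adjusted p = 0.00176). Both also passed with all 3 Ctrl libraries under median ratio scaling (adjusted p = 0.0363 and 0.0429), in the fit of all 12 libraries (0.0112 and 0.0134) and with the length trend taken out (0.0173 and 0.0325). Taking the length trend out together with leaving out Ctrl replicate 1 gave Tpx2 0.27, Hmmr 0.49 and Kif20a 0.48 (adjusted p = 0.00168, 0.000263 and 0.000878), and the Nppa term gave 0.21, 0.43 and 0.41 (0.00147, 1.33e-05 and 3.96e-05).

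**Figure D3:**
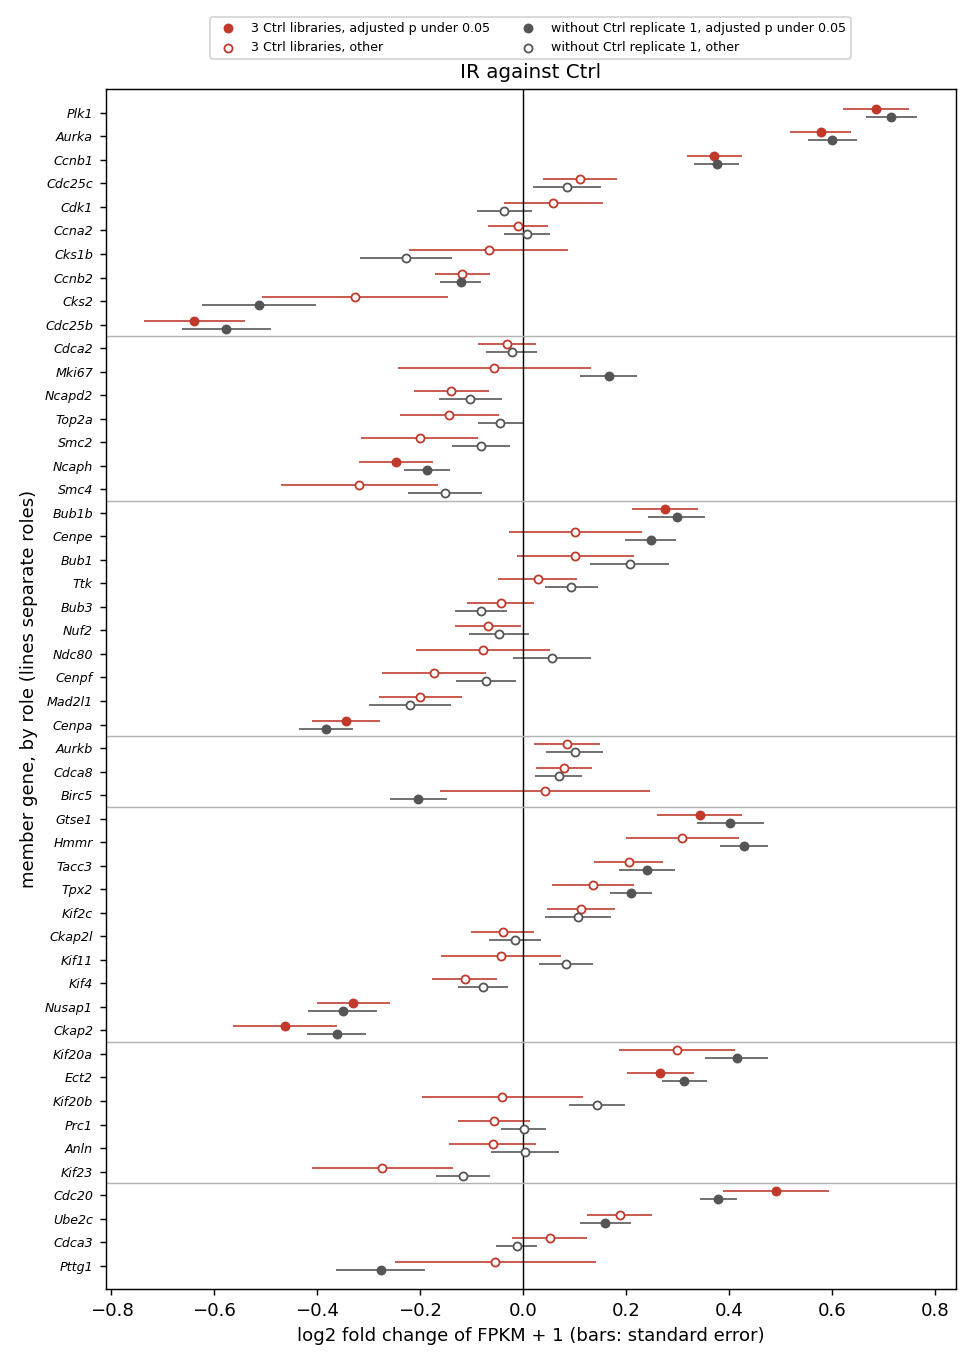
Points give the log2 fold change of FPKM + 1 in IR against Ctrl for the 50 members, with all 3 Ctrl libraries and without Ctrl replicate 1 in different colours, bars give the standard error, and filled points passed an adjusted p under 0.05. Standard errors have a median of 0.0783 with the library and 0.0538 without it, and 23 points are filled without it against 12 with it.

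By role, the counts stand beside 17.5% of all genes that rose and 25.5% that fell. Of 10 genes of the Cdk1 engine, 3 rose and 1 fell, with a median log2 fold change of 0.02. Of 10 kinetochore and checkpoint genes, 1 rose and 1 fell, and of 10 spindle motors and microtubule proteins 1 rose and 2 fell. All 7 chromosome structure genes had a log2 fold change below 0 with all Ctrl libraries (median -0.14) and 1 passed, but with Ctrl replicate 1 left out Mki67 was higher and 6 were below 0. None of the 3 chromosomal passenger genes passed, with 0.04 to 0.08. Of the 6 central spindle genes Ect2 rose, and of the 4 ubiquitin and anaphase genes Cdc20. Without Ctrl replicate 1, where 25.1% of all genes were higher and 34.7% lower, the counts higher and lower were 3 and 3 in the Cdk1 engine, 2 and 1 in the kinetochore, 4 and 2 in the spindle, 1 and 1 in chromosome structure, 0 and 1 in the passenger complex, 2 and 0 in the central spindle and 2 and 1 among the ubiquitin and anaphase genes.

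Promoter sequences are shown for the 4 largest rises and the 4 largest falls, since these members moved in opposite directions while G2/M genes are known to share a class of promoter. Such promoters are known for the CHR element TTTGAA, bound by complexes that repress them in quiescence and activate them in G2, and for CCAAT boxes bound by the factor NF-Y. In the RefSeq promoter set (GRCm38.p6), 43 members had an entry, and those without were Ccna2, Cdc25c, Aurkb, Kif20a, Tpx2, Cdca2 and Smc4. TTTGAA was searched on both strands in the 250 bases before the start and stood in 15 of 43 member promoters (34.9%), against 16.3% of all 27025 promoters. The variant TTTAAA, which reads the same on both strands, was in 7 (16.3% against 12.1%). CCAAT on either strand was in 32 (74.4% against 34.5%), at 2 or more places in 23 of 43 against 2849 of 27025, and together with TTTGAA in 14 (32.6% against 5.73%). Motifs were counted separately also where they share a base. A match is a run of letters and not a measured binding site.

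The 150 bases before the RefSeq start of each gene follow, 5′ to 3′ on the strand of the gene, with the 3 motifs, read on either strand, in capitals. Plk1 is at chr7:122159285-122159434 on the plus strand, Aurka at chr2:172370571-172370720 on the minus strand, Cdc20 at chr4:118437344-118437493 on the minus strand and Ccnb1 at chr13:100786487-100786636 on the minus strand. Cdc25b is at chr2:131186798-131186947 on the plus strand, Ckap2 at chr8:22185820-22185969 on the minus strand, Cenpa at chr5:30666736-30666885 on the plus strand and Nusap1 at chr2:119618148-119618297 on the plus strand. The start in GENCODE M21 lies farther upstream for Cenpa, Ccnb1 and Cdc20, so that 109, 84 and 9 of their 150 bases lie inside the gene as annotated there.
Plk1: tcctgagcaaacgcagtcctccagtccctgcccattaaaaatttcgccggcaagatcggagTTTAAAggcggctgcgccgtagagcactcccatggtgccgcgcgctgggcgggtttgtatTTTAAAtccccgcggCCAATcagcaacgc
Aurka: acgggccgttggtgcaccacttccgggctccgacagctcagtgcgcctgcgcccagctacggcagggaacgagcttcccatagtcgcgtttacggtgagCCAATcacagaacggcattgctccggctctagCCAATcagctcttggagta
Cdc20: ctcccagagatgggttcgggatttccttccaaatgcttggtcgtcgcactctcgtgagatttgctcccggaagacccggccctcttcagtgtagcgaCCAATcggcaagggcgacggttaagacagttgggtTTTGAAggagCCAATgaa
Ccnb1: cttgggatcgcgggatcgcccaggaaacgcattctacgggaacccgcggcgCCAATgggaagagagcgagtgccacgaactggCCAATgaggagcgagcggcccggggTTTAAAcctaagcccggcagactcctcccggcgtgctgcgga
Cdc25b: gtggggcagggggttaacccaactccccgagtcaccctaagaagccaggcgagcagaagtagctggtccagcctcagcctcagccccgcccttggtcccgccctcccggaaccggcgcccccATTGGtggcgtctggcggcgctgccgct
Ckap2: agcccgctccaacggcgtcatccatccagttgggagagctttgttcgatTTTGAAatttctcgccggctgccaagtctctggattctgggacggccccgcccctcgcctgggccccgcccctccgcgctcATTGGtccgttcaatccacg
Cenpa: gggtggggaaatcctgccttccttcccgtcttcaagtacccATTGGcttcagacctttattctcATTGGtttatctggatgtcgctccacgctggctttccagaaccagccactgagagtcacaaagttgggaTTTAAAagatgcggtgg
Nusap1: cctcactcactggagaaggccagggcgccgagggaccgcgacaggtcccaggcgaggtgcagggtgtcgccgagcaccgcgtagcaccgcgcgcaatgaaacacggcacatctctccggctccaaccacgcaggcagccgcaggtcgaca

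In these windows TTTGAA stood in Cdc20, close to the start, and in Ckap2, farther upstream, so it was present in 1 of the 4 rises and 1 of the 4 falls. CCAAT was found in 7 of the 8, with no match in Nusap1, and TTTAAA stood in Plk1, Ccnb1 and Cenpa. Members with the same motifs thus lay on both sides of the comparison.

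Ab_IR and L_IR were each set against IR to ask how irradiated cells of the further groups differed from those irradiated alone. Both comparisons use the same IR libraries, so likeness between them is not independent. In Ab_IR, 32 members passed (64.0% against 68.7% of 12067 genes), 13 higher (26.0% against 39.4%) and 19 lower (38.0% against 29.4%). In L_IR, 35 members passed (70.0% against 66.8% of 12163 genes), 8 higher (where 40.8% of all genes were) and 27 lower (54.0% against 26.0%). The groups did not overlap for 40 members in Ab_IR (80.0% against 73.0%) and 38 in L_IR (76.0% against 71.2%). The members' median log2 fold change was -0.08 in Ab_IR and -0.10 in L_IR, where the medians of all genes were 0.06 and 0.07. None passed 2-fold in either (7.57% and 6.22% of all genes). Pttg1 in Ab_IR came nearest and did pass with a pseudocount of 0.1 (1.03, where 12.5% of all genes passed), without IR replicate 2 (1.01, 7.6%) and without Ab_IR replicate 2 (1.01, 7.68%).

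How far the list leaned lower depended on scaling. With immunoglobulin genes left out, Ab_IR split into 7 higher and 29 lower, where 28.3% and 39.3% of all genes passed, and with median ratio scaling into 10 and 27, where 35% and 35% did. The median of all genes in Ab_IR against IR moved from 0.06 to -0.06 without immunoglobulin genes, and the members' median relative to it was -0.14 before and -0.17 after, and it was -0.06 with quantile normalization, -0.08 with no filter, -0.09 with the length trend taken out and -0.24 with the Nppa split as a term. In L_IR these 4 settings gave -0.10, -0.11, -0.16 and -0.28, against -0.17. L_IR split into 5 higher and 36 lower with median ratio scaling, where 33% and 33.3% of all genes passed. In a fit of all 12 libraries it split into 4 and 16, where 29.3% and 17.4% did. With the Nppa split as a term, which then rests on Ctrl replicate 1, the counts were 11 higher and 24 lower in Ab_IR and 5 higher and 25 lower in L_IR, where 35.6% and 26.9% of all genes passed in Ab_IR and 34.1% and 22.2% in L_IR. With that term 5 members in Ab_IR and 1 in L_IR passed 2-fold, against 16.4% and 13.1% of all genes.

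Plk1, Aurka, Ccnb1 and Cdc20 were lower in both groups. They were described above for their high level in these same IR libraries, so the opposite direction here is in part fixed by that choice and is given as a description. Plk1 had log2 fold changes of -0.60 in Ab_IR (SE 0.0433, adjusted p = 1.72e-05) and -0.59 in L_IR (SE 0.0258, adjusted p = 2.46e-06). Aurka had -0.58 (adjusted p = 2.71e-05) and -0.64 (adjusted p = 4.58e-06), and Ccnb1 -0.41 (adjusted p = 2.69e-05) and -0.31 (adjusted p = 7.86e-05). Cdc20 had smaller values of -0.20 (adjusted p = 0.00313) and -0.30 (adjusted p = 0.000110), and with the Nppa split as a term both turned positive, to 0.14 and 0.04. In the fit of all 12 libraries the Cdc20 call in Ab_IR was lost (adjusted p = 0.0640), while without immunoglobulin genes or with the length trend taken out that value was -0.35 or -0.37.

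Hmmr, called higher in the same IR libraries when Ctrl replicate 1 was left out, showed the largest fall in Ab_IR. It was listed at 22.5, 17.4 and 17.2 FPKM in Ctrl, 23.3, 24.4 and 23.1 FPKM in IR, 13.7, 14.2 and 14.6 FPKM in Ab_IR and 17.3, 18.4 and 18.2 FPKM in L_IR. Every Ab_IR library was below the other 9, L_IR lay between Ab_IR and IR, and against IR the difference was -0.70 in Ab_IR (SE 0.0407, adjusted p = 6.32e-06) and -0.38 in L_IR (SE 0.0366, adjusted p = 0.000110). Cenpe, the kinesin that carries chromosomes to the spindle equator, was at 19.7, 14.7 and 13.8 FPKM in Ctrl, 17.1, 17.4 and 16.9 FPKM in IR, 12.2, 12.1 and 11.5 FPKM in Ab_IR and 13.6, 14.5 and 14.6 FPKM in L_IR. Ab_IR and L_IR had -0.49 and -0.25 (adjusted p = 2.94e-05 and 0.000639), and IR stood above both groups without overlap. The L_IR call of Cenpe was lost with all 12 libraries (adjusted p = 0.0661).

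Counts by role stand beside 39.4% of all genes higher and 29.4% lower in Ab_IR and 40.8% and 26.0% in L_IR. Of 10 kinetochore and checkpoint genes, 3 were higher and 4 lower in Ab_IR, and 1 and 5 in L_IR. Of 10 spindle motors and microtubule proteins the counts were 2 and 5 in Ab_IR and 1 and 6 in L_IR, and of 6 central spindle genes 0 and 4 and then 1 and 4. Of 10 Cdk1 engine genes, 4 were higher and 3 lower in Ab_IR, and 2 and 6 in L_IR. The 7 chromosome structure genes had 2 and 2 in both groups. The 3 passenger genes had 1 and 0 in Ab_IR and 0 and 1 in L_IR. The 4 ubiquitin and anaphase genes had 1 and 1 in Ab_IR and 1 and 3 in L_IR.

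Other members fell in both groups, of which Ect2 and Bub1b had also been called high in the same IR libraries, as had Tpx2 and Mki67 without Ctrl replicate 1. For these the direction is not independent. Ect2 was at 14.01 to 15.9 FPKM in Ab_IR and 14.8 to 15.6 FPKM in L_IR, with -0.41 and -0.36 against IR (adjusted p = 0.000384 and 6.45e-05). The checkpoint kinase Bub1 had -0.37 and -0.33 (adjusted p = 0.000454 and 0.000193). Tpx2 was at 57.7, 48.2 and 50.4 FPKM in Ctrl, 57.6, 57.3 and 56.4 FPKM in IR, 47.9, 45.7 and 44.9 FPKM in Ab_IR and 43.8, 43.4 and 46.2 FPKM in L_IR, with -0.30 and -0.35 (adjusted p = 0.000231 and 5.53e-05). Its IR libraries were above both further groups. Bub1b had -0.25 and -0.09 (adjusted p = 0.000649 and 0.0164, the second 0.0598 without IR replicate 3, 0.135 with quantile normalization, 0.0994 with the Nppa term and 0.154 with all 12 libraries). Mki67 was at 88.2, 88.9 and 83.9 FPKM in Ab_IR and 101, 102 and 107 FPKM in L_IR, and had -0.47 and -0.23 against IR (adjusted p = 2.21e-05 and 0.000410, the second 0.232 with all 12 libraries).

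Pttg1, the securin that restrains separase until anaphase, rose in both groups. It was listed at 7.94, 14.5 and 12.1 FPKM in Ctrl, 10.3, 11.4 and 10.54 FPKM in IR, 23.9, 20.9 and 21.3 FPKM in Ab_IR and 15.99, 18.4 and 16.8 FPKM in L_IR. Every Ab_IR and L_IR library lay above every IR and Ctrl library. Against IR its log2 fold change was 0.97 in Ab_IR (SE 0.0622, adjusted p = 1.00e-05), the largest of the list in these comparisons, and 0.62 in L_IR (SE 0.0584, adjusted p = 9.27e-05).

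Cdc25b, Cenpa and Ckap2 were higher in both groups. They and Nusap1 were described above for their difference between IR and Ctrl, in their case a low IR level, and the same IR libraries enter here, so this direction is likewise not independent. Cdc25b had 0.61 in Ab_IR and 0.26 in L_IR (adjusted p = 5.16e-05 and 0.000371), Cenpa 0.48 and 0.35 (adjusted p = 5.34e-05 and 0.000277) and Ckap2 0.31 and 0.18 (adjusted p = 0.000195 and 0.00202). With the Nppa split as a term, Cdc25b in L_IR had 0.08 (adjusted p = 0.628) and Ckap2 -0.12 (adjusted p = 0.182), and the call of Ckap2 was also lost with all 12 libraries (0.0770). In Ab_IR that term left Ckap2 at 0.0022 (adjusted p = 0.981). Nusap1 passed in Ab_IR (0.27, adjusted p = 0.00449, or 0.12 and 0.145 without immunoglobulin genes) and not in L_IR (0.02, adjusted p = 0.744).

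Cks2 was at 93.4, 157 and 121 FPKM in Ctrl, 91.4, 102 and 96.6 FPKM in IR, 134, 127 and 136 FPKM in Ab_IR and 103, 108 and 97.1 FPKM in L_IR. It passed in Ab_IR (0.45, adjusted p = 0.000122) and not in L_IR (0.09, adjusted p = 0.164), where its libraries overlapped with IR. Cks1b passed in both, at 0.42 and 0.13 (adjusted p = 4.70e-05 and 0.0179). Its L_IR call was lost with median ratio scaling (adjusted p = 0.259), with all 12 libraries (0.397), with the length trend taken out (0.397) and without IR replicate 2 (0.0594). With the Nppa term Cks2 passed in L_IR (0.65, adjusted p = 0.00434). Mad2l1 had 0.24 in Ab_IR (adjusted p = 0.0316, lost without IR replicate 1, 0.0912, IR replicate 2, 0.0742, or Ab_IR replicate 2, 0.0618) and 0.04 in L_IR (adjusted p = 0.374). The Ab_IR value of Mad2l1 fell to 0.10 without immunoglobulin genes (adjusted p = 0.352), and its call was lost with median ratio scaling (0.0612), with no filter (0.0771) and with the Nppa term (0.104). Leaving out single libraries gave 0.15 to 0.32.

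Cdk1 differed between the groups. It stood at 30.2, 29.1 and 28.6 FPKM in Ab_IR and at 24.6, 24.8 and 25.96 FPKM in L_IR, against 28.5 to 28.98 FPKM in IR. The differences of these groups from IR were 0.02 and -0.19 (adjusted p = 0.562 and 0.000946). With the Nppa split as a term, Cdk1 passed as higher in Ab_IR (0.31, adjusted p = 0.00489) and had 0.09 in L_IR (adjusted p = 0.312). Without immunoglobulin genes it passed as lower in Ab_IR (-0.12, adjusted p = 0.0468), and with all 12 libraries the call in L_IR was lost (0.0577). Of the 4 ubiquitin and anaphase genes, 3 fell in L_IR, Cdc20 and also Ube2c, the conjugating enzyme of the anaphase-promoting complex (-0.31, adjusted p = 0.000221), and Cdca3, a trigger of mitotic entry (-0.20, adjusted p = 0.000304). In Ab_IR, Ube2c and Cdca3 had 0.05 and 0.06 (adjusted p = 0.379 and 0.163). With the Nppa term Cdca3 passed as higher in Ab_IR (0.25, adjusted p = 0.00197) and had -0.0036 in L_IR (adjusted p = 0.957).

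Neither Aurkb nor Top2a passed in either group. Aurkb was at 43.9, 47.7 and 43.7 FPKM in Ab_IR and 43.1, 44.1 and 44.8 FPKM in L_IR, with 0.06 and 0.02 against IR (adjusted p = 0.267 and 0.442), and it passed in L_IR with quantile normalization at 0.08 (adjusted p = 0.0202). Top2a was at 81.1, 79.4 and 75.9 FPKM and 76.4, 79.4 and 82.3 FPKM, with -0.09 and -0.08 (adjusted p = 0.0729 and 0.0766), and it passed in both with median ratio scaling at -0.15 and -0.16 (adjusted p = 0.00322 and 0.00526) and with the Nppa term at -0.38 and -0.37 (0.000986 and 0.00143). In Ab_IR it passed also without immunoglobulin genes (-0.24, adjusted p = 0.00362), with quantile normalization (0.0499) and without Ab_IR replicate 1 (0.0405), and in L_IR with the length trend taken out (-0.12, 0.00919) and without L_IR replicate 3 (0.0328). Kif11 was at 31.99, 30.01 and 29.9 FPKM and 29.8, 31.3 and 32.04 FPKM, with -0.12 and -0.10 (adjusted p = 0.0262 and 0.0285). The call in Ab_IR was lost without any of the IR libraries or Ab_IR replicate 2 or 3 (adjusted p = 0.0636 to 0.0909), and that in L_IR without any of the IR libraries or L_IR replicate 1 or 2 (0.0513 to 0.0854). Both were lost with all 12 libraries (that in L_IR at an adjusted p of 0.406), that in Ab_IR also with the length trend taken out (0.0565) and that in L_IR with quantile normalization (-0.04, 0.293).

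Birc5 was at 21.98, 39.2 and 35.5 FPKM in Ctrl, 32.1, 31.6 and 33.1 FPKM in IR, 46.2, 41.3 and 42.6 FPKM in Ab_IR and 32.2, 30.5 and 31.4 FPKM in L_IR. Its Ab_IR libraries stood above the IR and L_IR libraries, and it passed in Ab_IR against IR (0.42 on the log2 scale, SE 0.0479, adjusted p = 0.000190) and not in L_IR (-0.04, SE 0.0307, adjusted p = 0.305). The L_IR difference was called in opposite directions by different settings, as lower with median ratio scaling (-0.12, adjusted p = 0.0132) and with the length trend taken out (-0.11, 0.0142), and as higher with the Nppa term (0.70, 0.000108).

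The Nppa term made many differences from IR larger by over 1.5 times. In Ab_IR, Pttg1 then had 1.64, Birc5 1.15, Cks2 1.01 and Cks1b 0.90 on the log2 scale. Lower there were Mki67 at -1.13, Hmmr at -1.06, Cenpe at -0.93, Bub1 at -0.69, Tpx2 at -0.52 and Kif11 at -0.50. In L_IR, Pttg1 had 1.29 and Cks1b 0.62, and Mki67 -0.89, Hmmr -0.74, Cenpe -0.69, Bub1 -0.64, Tpx2 -0.58 and Kif11 -0.48. These values rest on Ctrl replicate 1, the only Ctrl library with Nppa under 1 FPKM.

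Scaling and length moved other called values by over 1.5 times. Without immunoglobulin genes, Ab_IR against IR gave Cks2 0.30, Cks1b 0.26, Birc5 0.27 and Ckap2 0.16, nearer to 0, and Bub1b -0.40 and Kif11 -0.27, farther from it. Median ratio scaling gave Kif11 -0.18 in Ab_IR and -0.18 in L_IR, and Bub1b -0.17 and Ckap2 0.10 in L_IR. With the length trend taken out, Cks1b had 0.23 and Ckap2 0.19 in Ab_IR, and Ckap2 0.11, Bub1b -0.16 and Kif11 -0.16 in L_IR.

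**Figure D4:**
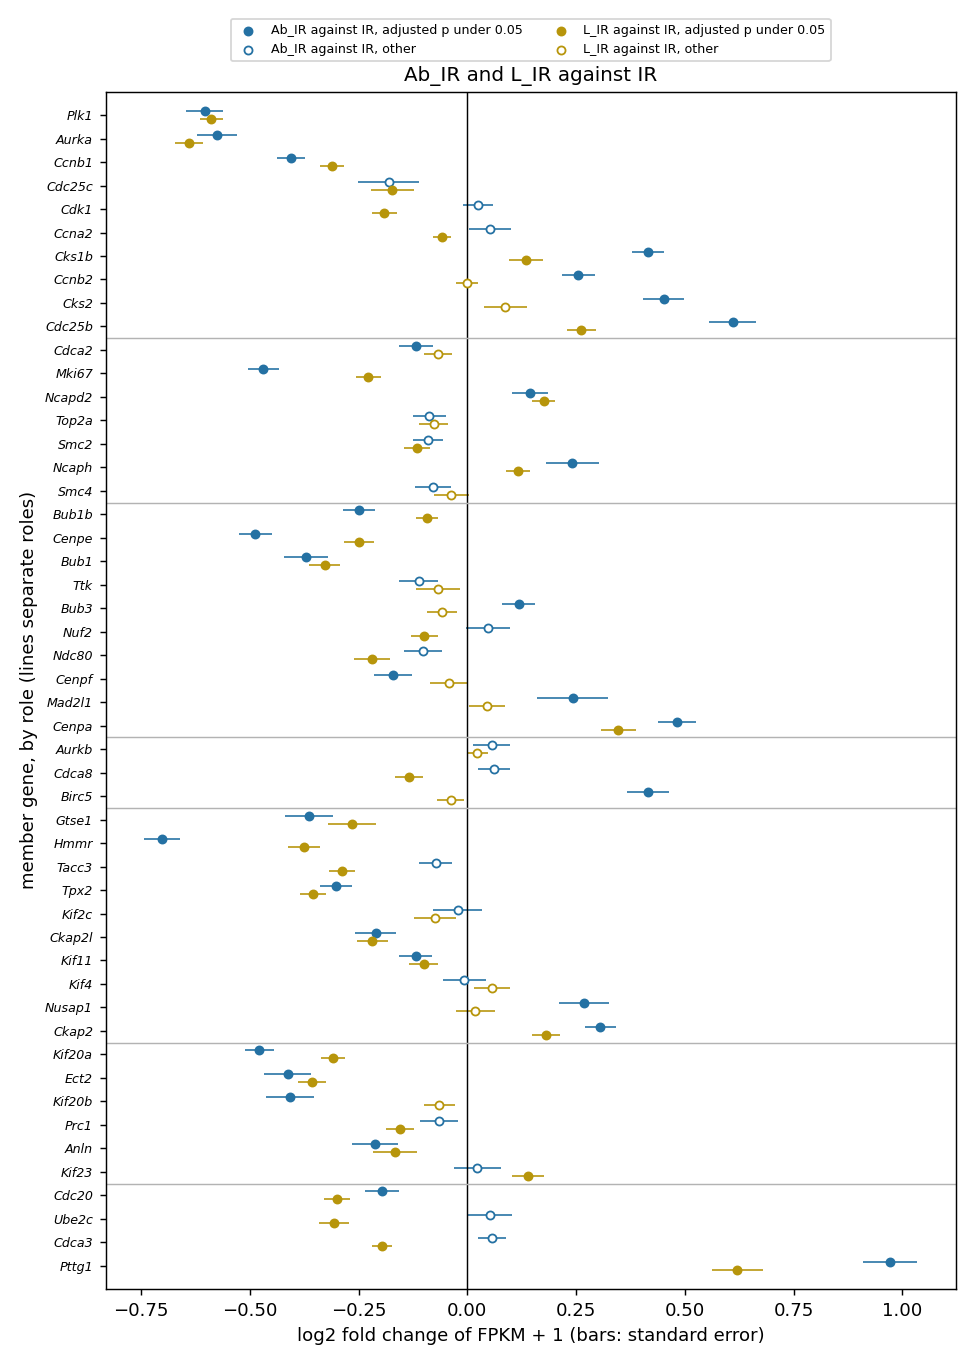
Points give the log2 fold change of FPKM + 1 of each member in Ab_IR against IR and in L_IR against IR, in different colours, bars give the standard error, and filled points passed an adjusted p under 0.05. Both colours share the IR libraries. Pttg1 lies farthest right in both, Hmmr, Plk1 and Aurka lie far left, and Cks2 and Birc5 are filled to the right for Ab_IR, where the points for L_IR are open.

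Ab_IR against L_IR compares the further groups directly and does not involve IR, Ctrl or the Nppa split. Of the 50 members, 20 passed (40.0% against 38.0% of 12194 genes), 14 higher (28.0% against 18.2%) and 6 lower, where 19.8% of all genes were. The 14 were Cdk1, Ccnb2, Cdc25b, Cks1b and Cks2 of the Cdk1 engine, Birc5 and Cdca8 of the passenger complex, Ube2c, Cdca3 and Pttg1 of the ubiquitin and anaphase genes, Bub3, Nusap1, Tacc3 and Ckap2. The 6 were Mki67, Bub1b, Cenpe, Hmmr, Kif20a and Kif20b. The groups did not overlap for 29 members (58.0% against 51.9%). With immunoglobulin genes, which took 13.7% to 14.5% of FPKM in Ab_IR and 22.2% to 22.9% in L_IR, left out, the split was 5 higher and 18 lower, where 6.48% and 34.2% of all genes passed, and the median of all genes went from 0.01 to -0.11. The members' median was 0.04 above that of all genes before and 0.01 above it after, and the difference was -0.01 with quantile normalization, 0.05 with the length trend taken out and 0.02 without L_IR replicate 1. In a fit of all 12 libraries 8 members were higher and 2 lower, where 8.02% and 11.2% of all genes passed. None passed 2-fold, which 0.533% of all genes did.

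Birc5, whose libraries are given above, showed the largest rise in Ab_IR over L_IR (0.45 on the log2 scale, SE 0.0492, adjusted p = 0.000625). Cks2 had 0.36 (adjusted p = 0.00148) and Pttg1 0.35 (adjusted p = 0.00707). Ube2c was at 70.99, 68.03 and 64.3 FPKM in Ab_IR and 52.3, 52.8 and 52.7 FPKM in L_IR, with 0.36 (SE 0.0430, adjusted p = 0.000948). For these 4 genes the groups did not overlap, and without immunoglobulin genes the values were 0.31, 0.22, 0.21 and 0.21. In the fit of all 12 libraries the calls of Birc5 (adjusted p = 0.0738), Cks2 (0.105) and Pttg1 (0.153) were lost.

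Also higher in Ab_IR were Cdk1 (0.21, adjusted p = 0.00551), though not without immunoglobulin genes (0.07, adjusted p = 0.301), and Ccnb2 (0.26, adjusted p = 0.00251), which likewise lost its call without them (0.11, adjusted p = 0.0942). Lower in Ab_IR were Kif20b, a midbody kinesin, at 8.84, 8.21 and 9.53 FPKM against 11.01, 11.8 and 11.7 FPKM (-0.34, SE 0.0581, adjusted p = 0.00396), and Hmmr (-0.33, adjusted p = 0.00139). Mki67 had -0.24 (adjusted p = 0.00366) and Cenpe -0.24 (adjusted p = 0.00595), again without overlap. With the length trend taken out, Mki67 had -0.10 and lost its call (adjusted p = 0.0571). With all 12 libraries the calls of Mki67 (adjusted p = 0.283), Cenpe (0.128), Kif20b (0.0833) and Cdk1 (0.0698) were lost. Bub1b had -0.16 (adjusted p = 0.0159), lost without L_IR replicate 1 (0.0509) or 3 (0.0671). Without immunoglobulin genes Mki67 had -0.39, Cenpe -0.38 and Bub1b -0.30, and with the length trend taken out Cenpe had -0.13 and Ccnb2 0.14.

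The remaining regulators followed for their roles did not pass between Ab_IR and L_IR. Plk1 had -0.02 (adjusted p = 0.808) and Aurka 0.06 (0.240), Tpx2 0.05 (0.358), Aurkb 0.03 (0.585), Top2a -0.01 (0.870) and Cdc20 0.10 (0.113). Ccnb1 had -0.09 (adjusted p = 0.0888) and passed as lower with quantile normalization (-0.16, 0.00803), without immunoglobulin genes (-0.24, 0.00666) and with the length trend taken out (-0.11, 0.0390). Mad2l1 had 0.20 (adjusted p = 0.0934) and passed as higher without Ab_IR replicate 3 (0.27, 0.0303) and with the length trend taken out (0.31, 0.0192). Kif11 had -0.02 (adjusted p = 0.777) and passed as lower without immunoglobulin genes (-0.16, 0.0488).

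Against Ctrl, few members of the further groups passed. In Ab_IR, 0 of 50 members passed by limma, where 2.1% of 12134 genes did (1.45% higher and 0.651% lower, 0.923% past 2-fold), and 12 of 50 members had an unadjusted p under 0.05, 3 higher and 9 lower, against 20.9% of all genes. The groups did not overlap for 22 members (44.0% against 33.5% of all genes). Without Ctrl replicate 1 there were 2 against 5.98% of all genes (3.6% higher and 2.38% lower). Pttg1 was higher (0.69, adjusted p = 0.00872) and Hmmr lower (-0.27, adjusted p = 0.0488). With all Ctrl libraries they had 0.92 and -0.39 (adjusted p = 0.0826 and 0.149), and both passed in the fit of all 12 libraries (0.00462 and 0.0140). In L_IR the spindle protein Ckap2l alone passed (-0.26, adjusted p = 0.0463), where 8.84% of 12251 genes did (4.76% higher and 4.08% lower, 2.65% past 2-fold). Its call was lost without Ctrl replicate 2 or 3 or any 1 of the L_IR libraries (adjusted p = 0.0553 to 0.225), with quantile normalization (0.0576), with no filter (0.0550), without immunoglobulin genes (0.266) and with the length trend taken out (0.0589). At an unadjusted p under 0.05 there were 11 of 50 members in L_IR, 2 higher and 9 lower, against 24.7% of all genes. The groups did not overlap for 26 members (52.0% against 36.1%), 21 of them lower in L_IR (42.0% against 18.4%). Fits of all 12 libraries called 5 members higher and 10 lower in Ab_IR, where 8.1% and 10.2% of all genes passed, and 2 and 8 in L_IR, where 10.4% and 10.9% did.

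Without Ctrl replicate 1, 9 members passed in L_IR against Ctrl (20.6% of all genes did), 8 lower and 1 higher, where 10.3% and 10.4% of all genes passed. The 8 were Cdk1, Cdc25b, Nusap1, Birc5, Cdca3, Ube2c, Cks2 and Ckap2l, and of these Cks2 had -0.43, Nusap1 -0.33 and Cdc25b -0.31 (adjusted p = 0.0415, 0.0222 and 0.0485), chosen after their values were seen. With all Ctrl libraries these were -0.24, -0.31 and -0.38 (adjusted p = 0.463, 0.0522 and 0.0666). Pttg1 was the higher one (0.34, adjusted p = 0.0461), with 0.57 (adjusted p = 0.140) when that library was kept. Nusap1, Cdc25b and Pttg1 passed in the fit of all 12 libraries (adjusted p = 0.00752, 0.00752 and 0.0280), Nusap1 with quantile normalization (0.0486) and Cdc25b without Ctrl replicate 2 (-0.48, 0.0121). Single libraries left out gave Cks2 -0.43 to -0.0529. Without that library the groups did not overlap for 32 of 50 members in L_IR (54.0% of all genes) and 22 in Ab_IR (42.3%), and 18 and 14 members had an unadjusted p under 0.05 (37.1% and 24.4%). With all Ctrl libraries, Plk1 had 0.08 and 0.10 in Ab_IR and L_IR (adjusted p = 0.534 and 0.412), and Aurka 0.0022 and -0.06 (adjusted p = 0.986 and 0.531). Leaving out Ctrl replicate 1 gave 0.11 and 0.13 for Plk1 and 0.02 and -0.04 for Aurka, and none passed.

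Gene length moved with several of these differences. Merged exon length of the members ran from 692 bases in Cks2 to 15433 bases in Cenpf, and 25 members lay at or under 4677 bases. Across the 50 members, which come from the same libraries, Pearson's r between log2 exon length and log2 fold change was -0.53 in Ab_IR against L_IR, -0.62 in Ab_IR against Ctrl and -0.32 in Ab_IR against IR. In IR against Ctrl it was -0.19, in L_IR against Ctrl -0.35 and in L_IR against IR -0.05. Without Ctrl replicate 1 it was 0.05 in IR, 0.02 in L_IR and -0.55 in Ab_IR against Ctrl. Over all genes with a length it was -0.08 in Ab_IR against L_IR, -0.33 in Ab_IR against Ctrl and -0.11 in Ab_IR against IR. Spearman's rho in these 3 comparisons was -0.50, -0.63 and -0.24 over the members and -0.32, -0.44 and -0.20 over all genes, so by rank the relation over all genes came nearer to that of the members. In Ab_IR against L_IR, 11 of the 25 shorter members were higher and 2 lower, and of the 25 longer ones 3 were higher and 4 lower, where 18.2% and 19.8% of all genes were. After the trend against length over all genes was taken out, these counts were 10 and 4, and 8 and 3, where 16.8% and 16.7% of all genes were higher and lower. The members' r was then -0.17. Calls of named members that this changed are given above.

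**Figure D5:**
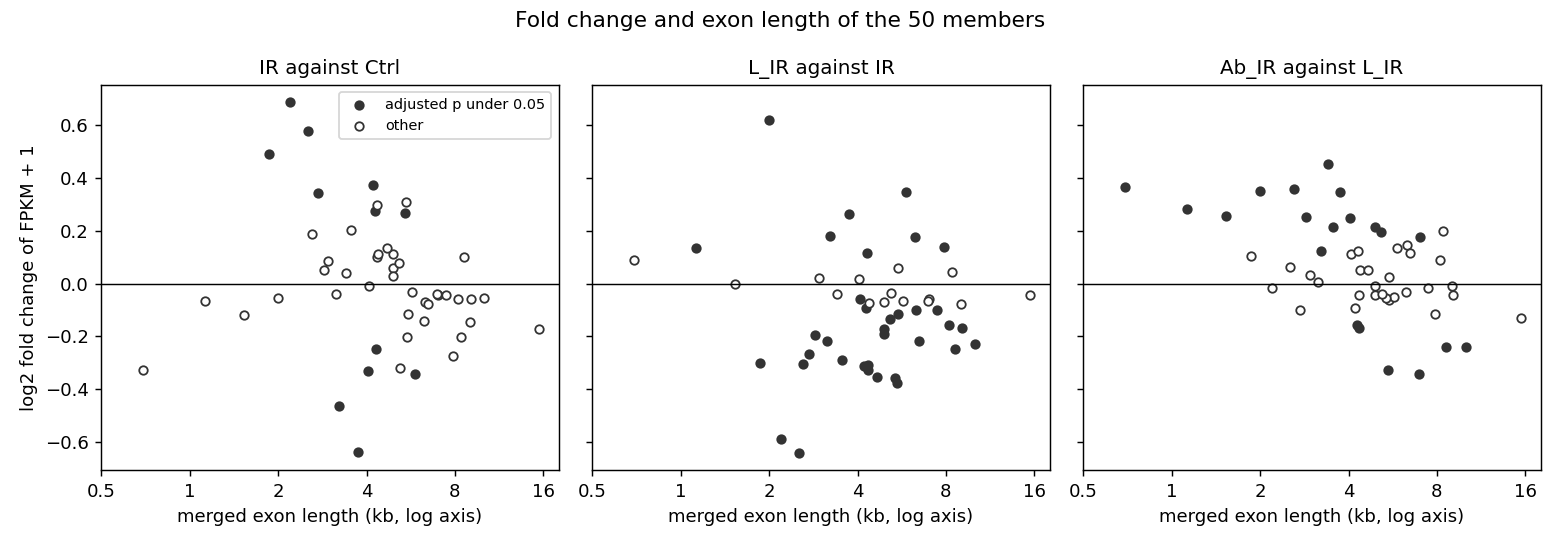
Each point is a member, with its merged exon length in kb on a log axis and its log2 fold change of FPKM + 1 in 3 comparisons, filled where the adjusted p was under 0.05. The points slope down with length in Ab_IR against L_IR (r = -0.53) and show little slope in L_IR against IR (r = -0.05).

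Exons of 15 members share bases with another gene in GENCODE M21, 13 of them with a gene on the opposite strand, Plk1, Cdc20, Cdc25b, Nusap1 and Ube2c included. Libraries were made with a stranded kit, but whether the counting used strand is not given in the sources used here, so values of these genes may hold reads of their neighbours.

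Neighbouring gene lists were read beside the members, and their counts stand beside 17.5% of all genes higher and 25.5% lower in IR against Ctrl (25.1% and 34.7% without Ctrl replicate 1). The shares were 39.4% and 29.4% in Ab_IR against IR and 40.8% and 26.0% in L_IR against IR. Of 53 other mitotic genes, 2 were higher and 8 lower in IR against Ctrl (9 and 14 without Ctrl replicate 1). Ube2s, which extends ubiquitin chains for the anaphase-promoting complex, was at 37.4 ± 0.917 FPKM in IR and 22.98 ± 0.794 FPKM in Ctrl (SD, n = 3), 0.68 on the log2 scale (limma adjusted p = 0.000286). The centromere proteins Cenpk (-0.73, adjusted p = 0.00159) and Cenpm (-0.69, adjusted p = 0.00225) were lower. In Ab_IR against IR this list had 17 higher and 17 lower, and in L_IR against IR 12 and 12. Among 14 genes of G2/M transcription, 2 were higher and 5 lower in IR against Ctrl. Mybl2, the B-Myb factor that activates such promoters, was at 42.5 ± 0.840 FPKM in IR and 30.5 ± 2.57 FPKM in Ctrl (SD, n = 3), 0.47 on the log2 scale (limma adjusted p = 0.00368), and Nfya, a subunit of NF-Y, was lower (-0.47, adjusted p = 0.00132). Without Ctrl replicate 1, 3 of the 14 were higher and 6 lower, and Ube2s had 0.67, Cenpk -0.69, Cenpm -0.78, Mybl2 0.51 and Nfya -0.45, all called.

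DNA replication genes were counted in the same way, beside the same shares of all genes. Of 41, 1 was higher and 21 were lower in IR against Ctrl, with a median log2 fold change of -0.26 against -0.04 for the members, and without Ctrl replicate 1 the counts were 3 and 23. The one that rose was Rrm2, a ribonucleotide reductase subunit used in S phase, at 193 ± 0.888 FPKM in IR and 124 ± 5.70 FPKM in Ctrl (SD, n = 3), 0.63 on the log2 scale (limma adjusted p = 0.000495), or 0.41 with quantile normalization. Pcna, the polymerase clamp, had -0.61 (adjusted p = 0.00546). Rrm2 had 0.60 and Pcna -0.51 without Ctrl replicate 1, both called. Against IR, 29 were higher and 2 lower in Ab_IR and 28 higher and 3 lower in L_IR, in which Rrm2 had -0.72 (adjusted p = 1.62e-06). The same IR libraries enter here, so a direction opposite to that of IR against Ctrl is in part fixed. Against Ctrl 0 of the 41 passed in Ab_IR or L_IR, where 2.1% and 8.84% of all genes did. Without Ctrl replicate 1, 1 was higher in Ab_IR (3.6% of all genes), and 1 was higher and 3 lower in L_IR (10.4% and 10.3%). The difference between the lists was not tested. Erythroid markers were lower in IR in the same libraries, as given above, and their part in the counts of either list was not tested.

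Of the brakes on mitosis, 11 of 13 genes were tested, and in IR against Ctrl 2 rose and 6 fell, where 17.5% and 25.5% of all genes did. Without Ctrl replicate 1 the counts were 2 and 5, where 25.1% and 34.7% did. The median log2 fold change of the 11 was -0.33, or -0.31 without that library, so most brakes were below 0 in IR. The 2 that rose were Gadd45b and Ccng1. Gadd45b, a stress-induced gene of the Gadd45 family, was at 24.7 ± 0.235 FPKM in IR and 12.1 ± 1.26 FPKM in Ctrl (SD, n = 3), 0.98 on the log2 scale (limma adjusted p = 0.000281), and Ccng1, a p53 target, had 0.75 (adjusted p = 0.000408). They had 0.91 and 0.71 without Ctrl replicate 1, both called. Against IR, 7 brakes were higher and 2 lower in Ab_IR (39.4% and 29.4% of all genes), with a median of 0.30. In L_IR 6 were higher and 4 lower (40.8% and 26.0% of all genes), with a median of 0.21. Gadd45b had -0.77 and -0.62 in these 2 comparisons (adjusted p = 8.73e-06 and 4.85e-06), the second -0.41 with the Nppa term. It was named for its high level in the same IR libraries, so its direction here is in part fixed. Cdkn1a, the inhibitor p21, rose over IR by 0.54 in Ab_IR and 0.78 in L_IR (adjusted p = 1.73e-05 and 7.16e-06), and against Ctrl IR had -0.12 (adjusted p = 0.202), or -0.07 without Ctrl replicate 1 (0.245). Anaphase-promoting complex subunits (15 genes) had 1 higher and 3 lower in IR against Ctrl (4 and 5 without Ctrl replicate 1), 6 and 2 in Ab_IR against IR and 3 and 2 in L_IR against IR. Cohesin genes (9) had 0 higher and 1 lower in IR against Ctrl, the core subunit Smc3 (-0.47, adjusted p = 0.0156, and -0.35 without Ctrl replicate 1). That call was lost without immunoglobulin genes (adjusted p = 0.0751) and without any 1 of the IR replicates (0.0534 to 0.0615), and its value was -0.29 with Ctrl replicate 1 left out and the length trend taken out. Without that library 3 were higher and 2 lower, where 25.1% and 34.7% of all genes were. In Ab_IR against IR the counts were 1 higher and 5 lower, with the loader Nipbl at -0.59 (adjusted p = 1.18e-05), or -1.16 with the Nppa term.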

How the data were processed

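A deposited expression table per library was read for the 12 libraries, and sample titles gave the 4 groups of 3. The submitters' processing notes name fastp, HISAT2, StringTie, GRCm38 and mm10, and the study's methods name RSEM for quantification. The deposited tables do not name their unit, and their sums and their relation to gene length are those of FPKM as computed by the authors. FPKM keep no depth, so precision from counting is unknown.

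limma 3.58.1 in R 4.3.3 (lmFit, eBayes with trend) modelled log2(FPKM + 1) in the libraries of both groups, keeping genes that reached 1 FPKM in 3 or more of them, with Benjamini-Hochberg adjustment over all genes tested. The scale understates changes of low genes. All adjusted p-values are from limma, called under 0.05. The authors' count test needs counts and was not used.

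The members and lists were chosen with earlier results of these data known. Members named in full were to be the 4 largest rises and 4 largest falls per comparison (adjusted p under 0.05, groups not overlapping, mean of at least 5 FPKM) and 13 anchors (Cdk1, Ccnb1, Plk1, Aurka, Mki67, Top2a, Bub1b, Mad2l1, Aurkb, Birc5, Kif11, Tpx2, Cdc20). Outside the comparisons of Ab_IR and L_IR with Ctrl, each has its log2 fold change and adjusted p, but library values and SE only where a result turns on them. Other members are named by range, call or role, and at most 3 genes of each further list. Cell markers are given as sums. The labels do not say that equal replicate numbers pair libraries, and same-numbered libraries correlated at -0.27 to 0.21 in their deviations from group means. Numbers were therefore not used as pairs, although a check on so few libraries per group cannot settle it.

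Alternatives were a pseudocount of 0.1, no filter, quantile normalization, median ratio scaling, rescaling without immunoglobulin genes, all 12 libraries in 1 fit, a replicate block, each library left out, the Nppa split as a term and, added after seeing the data, the length trend taken out by itself or with Ctrl replicate 1 left out. Lengths are from GENCODE M21. The fits were tried on simulated data in which each gene varied independently. These held no unlike library, scaling shift or length trend, so they do not test how the fits deal with those. Python 3.11.15 and matplotlib 3.10.9 made the figures.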

Additional observations from a re-analysis of the deposited data

How the results depend on the processing

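Depth is unknown, so members of low FPKM such as Cdc25c and Cenpf have no counting error here. A pseudocount of 0.1 changed no adjusted-p call of a named gene, but took Pttg1 past 2-fold in Ab_IR against IR. The causes of the changes below were not tested.

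Shares of all genes stand in brackets. Members higher in IR against Ctrl numbered 7 (17.5%). They numbered 11 with median ratio scaling (21.1%), with all 12 libraries (22.1%) or with the length trend taken out (22.9%). With the Nppa split as a term they numbered 15 (25.9%). With Ctrl replicate 1 left out and the length trend taken out they numbered 19 (30.5%). Single libraries left out gave 4 to 14, with 4 without IR replicate 1 (11.8%) or 3 (11.7%) and 14 without Ctrl replicate 1 (25.1%). Lower members numbered 5 (25.5%), and 3 without immunoglobulin genes (18.9%) and 10 with the Nppa term (37.5%). Single libraries left out gave 3 to 9, with 3 without any 1 of the IR replicates (16.9% to 17%) and 9 without Ctrl replicate 1 (34.7%). In Ab_IR against IR, leaving out immunoglobulin genes gave 7 higher and 29 lower (28.3% and 39.3%). In L_IR against IR, 5 were higher with median ratio scaling (33%), the Nppa term (34.1%) or the length trend taken out (32.4%). With all 12 libraries 4 were higher and 16 lower there (29.3% and 17.4%). In Ab_IR against L_IR, no immunoglobulin genes gave 5 higher and 18 lower (6.48% and 34.2%), and all 12 libraries 8 and 2 (8.02% and 11.2%). Against Ctrl, all 12 libraries gave 5 higher and 10 lower in Ab_IR (8.1% and 10.2%) and 2 and 8 in L_IR (10.4% and 10.9%). Leaving out single libraries gave 0 to 1 higher and 0 to 1 lower in Ab_IR (0.445% to 3.6% and 0.115% to 2.38%). In L_IR it gave 0 to 1 higher and 0 to 8 lower (2.21% to 10.4% and 1.23% to 10.3%). The 1 lower member of L_IR was lost, leaving 0, with no filter (0.98%), without immunoglobulin genes (1.96%), with the replicate block (1.56%) and with the length trend taken out (4.56%).

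Whether the replicate numbers pair the libraries is not given in the labels. With the replicate block, 5 members were higher and 4 lower in IR against Ctrl, where 14.6% and 20.9% of all genes were. Of the named members Bub1b (limma adjusted p = 0.0515), Ect2 (0.0584) and Ncaph (0.0703) lost their calls in IR against Ctrl, Bub1b in Ab_IR against L_IR (0.0667), Mad2l1 (0.0504) and Kif11 (0.0503) in Ab_IR against IR, and Ckap2l in L_IR against Ctrl (0.160).

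Signs turned for log2 fold changes of these members. In IR against Ctrl, with Ctrl replicate 1 left out and the length trend taken out, Mki67 had 0.16, Birc5 -0.13, Kif11 0.11, Ccna2 0.0759 and Cdkn1a, of the brakes, 0.0052. Quantile normalization gave Cdk1 -0.0031 and Birc5 -0.0175, median ratio scaling Mki67 0.0062 and Kif11 0.0175, no immunoglobulin genes Mki67 0.0293 and Kif11 0.0399, the Nppa term Cdk1 -0.0369, Mki67 0.17, Birc5 -0.20 and Kif11 0.0823, and the length trend taken out Kif11 0.0225. Ccna2 had 0.0519, 0.075, 0.0069 and 0.0587 with median ratio scaling, without immunoglobulin genes, with the Nppa term and with the length trend taken out. With single libraries left out, Ccna2 ranged from -0.0427 to 0.0069, Cdk1 from -0.0369 to 0.14, Mki67 from -0.21 to 0.17, Birc5 from -0.20 to 0.20 and Kif11 from -0.14 to 0.0823. In Ab_IR against IR, median ratio scaling, no immunoglobulin genes and the length trend taken out gave Cdk1 -0.0397, -0.12 and -0.0267 and Aurkb -0.0084, -0.0934 and -0.0722, Cdca3 -0.0082, -0.093 and -0.0758 and Ube2c -0.0125, -0.0981 and -0.0924, and the Nppa term gave Cdc20 0.14. In L_IR against IR, the Nppa term gave Ckap2 -0.12, Cdk1 0.0946, Aurkb -0.0213, Birc5 0.70 and Cdc20 0.0355, median ratio scaling Mad2l1 -0.0315, Aurkb -0.0572 and Nusap1 -0.0609, the length trend taken out Mad2l1 -0.0067, Aurkb -0.0504, Nusap1 -0.0535 and Cks2 -0.0439, and quantile normalization Birc5 0.0215. Nusap1 ranged there from -0.0153 to 0.0524 with single libraries left out. In Ab_IR against L_IR, no immunoglobulin genes gave Aurka -0.0784, Aurkb -0.11, Tpx2 -0.0912 and Cdc20 -0.043, the length trend taken out Aurka -0.0277, Top2a 0.11, Aurkb -0.0378, Kif11 0.0669 and Cdc20 -0.0138, and quantile normalization Aurkb -0.0327 and Tpx2 -0.0082. With single libraries left out there, Plk1 ranged from -0.056 to 0.0114, Top2a from -0.0367 to 0.0163, Aurkb from -0.0066 to 0.0543 and Kif11 from -0.0484 to 0.0045. Against Ctrl, quantile normalization gave Aurka -0.0641 and Plk1 -0.0365 in Ab_IR, the length trend taken out -0.0808 and -0.0196, and no immunoglobulin genes Aurka -0.0623 in Ab_IR and 0.0162 in L_IR, and with single libraries left out Aurka in Ab_IR ranged from -0.0217 to 0.0342.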
